A study of Mus musculus with 4 samples.

Results

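The 40 genes described here encode the enzymes of glycolysis and the pentose phosphate pathway, the proteins that decide what becomes of pyruvate, glycogen synthase and a glycogen phosphorylase, and the hypoxia-inducible factor HIF-1α with its hydroxylases and some of its targets. They were taken by symbol from the 24343 genes left after the deposited transcript rows were matched to mouse gene symbols and summed per gene. All 40 had a row. The study measured RNA in sorted mouse group 3 innate lymphoid cells (ILC3s), lymphocytes without antigen receptors that answer IL-23 and related cytokines with IL-22 and IL-17. TL1A, a cytokine of the TNF family that binds the receptor DR3, was the stimulus. The labels do not state the purpose of the comparison.

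The first group was 2 libraries of ILC3s stimulated with TL1A, and the second 2 libraries of ILC3s kept in medium. Cells of both groups came from IL23R-GFP/WT mice, in which one copy of the IL-23 receptor locus carries green fluorescent protein and the other is wild type, and were isolated by flow sorting on CD127 and GFP after exclusion of lineage-marked cells. All libraries therefore share the reporter allele and the gate. The labels give neither the dose nor the length of the stimulation, nor the age or tissue of the animals. Whether the replicates of a group are separate mice or cultures is not stated either, and the p-values therefore reflect library-to-library spread alone, possibly technical. These are bulk samples, in which fewer cells of a type and less RNA per cell cannot be told apart.

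Glycolysis splits glucose into pyruvate through an early phase that spends ATP and a later phase that returns ATP and NADH. Pyruvate is reduced to lactate by lactate dehydrogenase or enters the mitochondrion, where pyruvate dehydrogenase turns it into acetyl-CoA. The pentose phosphate pathway branches off at glucose 6-phosphate and yields NADPH and ribose for nucleotides. HIF-1α is marked for destruction by oxygen-dependent prolyl hydroxylases, and when it is stable it raises transcription of most glycolytic genes and of the hydroxylase Egln3. Activated lymphocytes commonly raise glucose uptake and glycolysis.

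The TL1A libraries held 11849977 and 12605164 reads assigned to a transcript, and the medium libraries 11495636 and 12222552. The 40 genes took 0.456% and 0.435% of these reads with TL1A, and 0.426% and 0.463% in medium. Levels are given as CPM, read counts scaled to a common library size with TMM factors. The limit set by a gene without reads, 3 counts in a library, was 0.279 and 0.259 CPM for TL1A and 0.239 and 0.225 CPM for medium. It covers counting error only. The CPM of 2 genes are not compared here, because they are not per length. Of the ILC3 markers, Il7r, the gene of CD127, had 1209 and 1191 CPM with TL1A and 3552 and 3661 CPM in medium, and Il23r had 663 and 632 CPM with TL1A and 1007 and 996 CPM in medium. Kit had 1 read in all. Over the 9 ILC3 markers the summed level was 5510 and 5320 CPM with TL1A and 7140 and 7500 CPM in medium, and 5 of the 8 tested fell while 1 rose. Markers of other cells were counted as well. The T cell list summed to 5.21 and 5.95 CPM with TL1A and 1.67 and 4.64 CPM in medium, with Cd8a at 0. The myeloid list of 6 genes summed to 34.8 and 44.4 CPM with TL1A and 82.6 and 93.8 CPM in medium, with Itgam at 0. Its genes did not move together: Cd14 had 4.74 and 5.69 CPM with TL1A and 45.7 and 49.3 CPM in medium, whereas Adgre1 had 13.3 and 19.0 CPM with TL1A and 10.4 and 6.89 CPM in medium. Csf1r had overlapping groups, with 5.21 and 3.97 CPM with TL1A and 3.90 and 6.29 CPM in medium. The epithelial and stromal list reached 3.35 and 3.02 CPM with TL1A and 11.9 and 6.74 CPM in medium, with Col1a1 at 0. The B cell and red cell lists stayed under 1 CPM in every library, with Ms4a1, Pax5, Hbb-bt and Hba-a1 at 0. The part of these markers in the results below was not tested. Kit, Cd8a and Itgam have 2 transcript rows each, and with the counting described below their low values are no sign of absence.

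Of the 40 genes, 29 had enough reads to be tested and 11 were barely counted, with fewer than 40 reads over the 4 libraries together. Vegfa, the vascular endothelial growth factor and a standard HIF target, was listed at 0 reads in every library although 9 transcript rows carry its name. Pfkfb3, a kinase that makes the activator of phosphofructokinase, and Aldoc, an aldolase, each had 0 reads in both TL1A libraries and 0 and 1 in medium. Slc16a3, a lactate exporter, had 0 and 1 reads with TL1A and 0 in both medium libraries, and Pgls, the lactonase of the pentose phosphate pathway, had 0 in both TL1A libraries and 4 and 0 in medium. The heart-type lactate dehydrogenase gene Ldhb had 1 and 0 reads with TL1A and 1 and 3 in medium, and the muscle enolase gene Eno3 had 0 and 3 with TL1A and 4 and 1 in medium. For these genes no level could be given beyond the floor. Eno1, the main enolase of most tissues, had 5 and 2 reads with TL1A and 1 and 2 in medium, a ratio of 2.71 for TL1A over medium with a counting interval of 0.618 to 16.2. Pfkm, the muscle phosphofructokinase, had 8 and 15 reads with TL1A and 8 and 7 in medium, a ratio of 1.78 (0.888 to 3.66). Slc16a1, a lactate and pyruvate carrier, had 2 and 10 reads with TL1A and 20 and 7 in medium, a ratio of 0.515 (0.238 to 1.05). These exact 95% intervals all include equality and cover counting error only. Eno2, the enolase best known from neurons, stood apart, with 9 and 19 reads with TL1A and 0 in both medium libraries. Against a floor of 3 reads over the medium group it was 10.8-fold higher. That value makes no allowance for the counting error of the TL1A reads or for their spread. The groups do not overlap, and Eno2 was not tested because it missed the read minimum.

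Counting was done per transcript, so a read that falls in an exon shared by several transcripts of a gene was not assigned, and a read that aligned to several places was not counted. Of the 15 genes in the set with several transcript rows, 9 were barely counted, against 2 of the 25 with 1 row. The same held over the whole table, in which 25% of 4984 genes with several rows and 44.5% of 19359 genes with 1 row could be tested. Gapdh, Ldha, Pgam1 and Eno1, all of which are known for many processed pseudogene copies, had 54, 53, 86 and 10 reads in all. A low count in these data is therefore no measure of a low transcript level, and the part of the counting in each single low value was not tested.

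**Figure D1:**
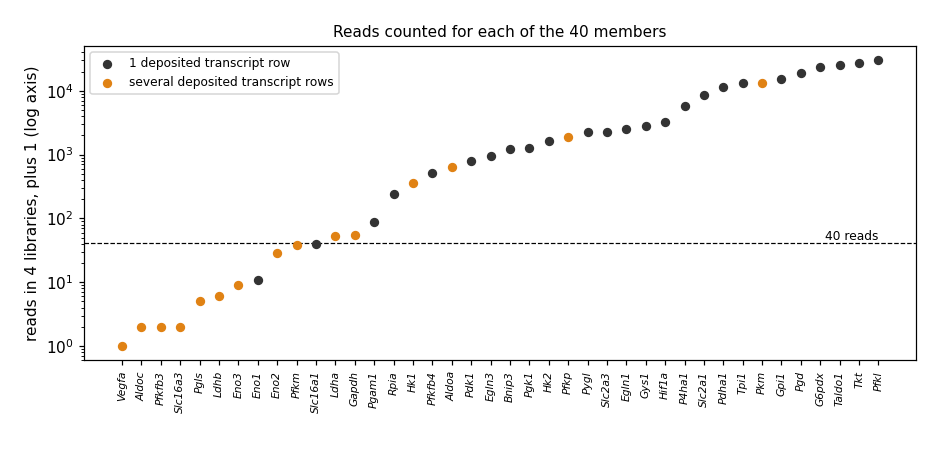
Reads assigned to each of the 40 genes, summed over the 4 libraries (vertical axis, reads plus 1, log scale). Color separates genes with 1 transcript row from genes with several. A dashed line marks 40 reads, the total under which a gene is called barely counted. Vegfa sits at 0 reads and Eno2 at 28 reads.

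Of the 29 genes tested, 10 rose with TL1A, 7 fell and 12 did not pass the test, edgeR's quasi-likelihood test with Benjamini-Hochberg adjustment over all 9852 genes tested. Genes of 1 function moved in opposite directions among the glucose transporters, the phosphofructokinase subunits and the HIF targets. The genes that rose by at least 2-fold were Slc2a1, Pgk1, P4ha1 and, on 54 reads and with a call lost when any library was left out, Gapdh, which entered the test only through the TL1A libraries. Those that fell by at least 2-fold were Slc2a3, Egln3 and Pygl. In all, 58.6% of the tested genes of the set were called, beside 42.3% of all genes tested, with 34.5% higher beside 20.6% and 24.1% lower beside 21.7%. The TL1A and medium libraries did not overlap for 22 of the 29, or 75.9%, which is close to the 72.2% over all genes tested. The median log2 fold change of the 29 was 0.11, beside -0.03 over all genes tested, and the changes ran from -2.99 to 1.71. Along the glycolytic path from glucose entry to pyruvate, 14 of 20 genes were tested, with a median of 0.40. Of these 14, 6 rose (42.9%), 2 fell (14.3%) and 6 did not pass.

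**Figure D2:**
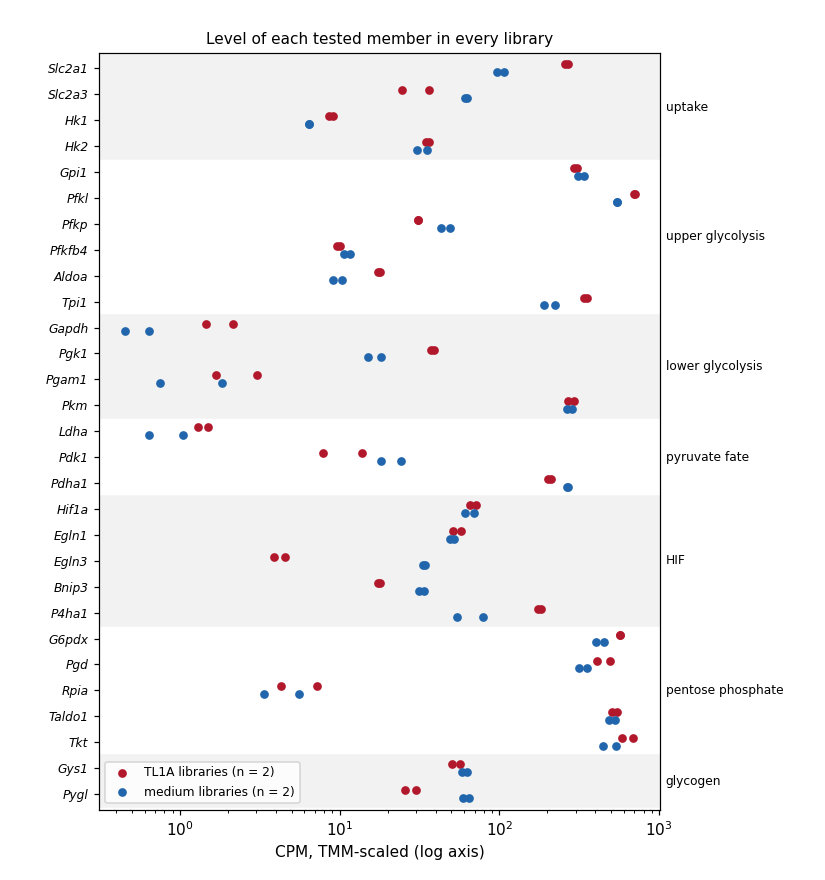
Level of each tested gene in each library (horizontal axis, CPM, log scale), grouped by step of the pathway, with TL1A and medium libraries as separate points. Slc2a1 lies at 269 and 258 CPM with TL1A and at 96.8 and 107 CPM in medium, and Egln3 at 4.56 and 3.88 CPM with TL1A and at 34.2 and 33.0 CPM in medium.

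Glucose enters cells through carriers of the SLC2A family, and the pair listed here moved in opposite directions. Slc2a1, the widely expressed glucose transporter that activated lymphocytes bring to their surface, had 269 and 258 CPM with TL1A and 96.8 and 107 CPM in medium. The TL1A libraries lay well above the medium libraries, and the gene rose 2.58-fold (log2 fold change 1.37, SE 0.09, adjusted p = 2.03e-05). Slc2a3, a high-affinity glucose transporter of neurons and white blood cells, had 36.4 and 24.5 CPM with TL1A and 62.7 and 61.3 CPM in medium. It was lower in both TL1A libraries, which differed from each other more than the medium libraries did, and it fell 2.04-fold (log2 fold change -1.03, SE 0.19, adjusted p = 0.00392). Hexokinase traps glucose inside the cell by phosphorylation. Hk1, its constitutive form, had 9.11 and 8.54 CPM with TL1A and 6.45 and 6.44 CPM in medium, without overlap, and missed the threshold (log2 fold change 0.45, SE 0.22, adjusted p = 0.142). Hk2, the inducible form and a HIF target, had 36.5 and 34.5 CPM with TL1A and 35.1 and 30.6 CPM in medium. Its groups overlap (log2 fold change 0.11, SE 0.14, adjusted p = 0.56).

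In the ATP-spending steps, 3 of the 6 tested genes rose and 1 fell, and their median log2 fold change was 0.11. With only 6 genes, this is 50% higher and 16.7% lower, beside 20.6% and 21.7% over all genes tested. Phosphofructokinase, the committed step of glycolysis, is built from subunits of the Pfkl, Pfkp and Pfkm genes. Pfkl, the liver-type subunit, had 698 and 702 CPM with TL1A and 548 CPM in both medium libraries, and rose 1.28-fold (log2 fold change 0.35, SE 0.06, adjusted p = 0.00299). The replicates lay close together on each side, so this small difference exceeded their spread. Pfkp, the platelet-type subunit, had 31.0 and 30.9 CPM with TL1A and 43.1 and 48.8 CPM in medium, and fell 1.49-fold (log2 fold change -0.57, SE 0.13, adjusted p = 0.0116). The groups do not overlap, but without medium replicate 2 the adjusted p was 0.0634. The remaining subunit, Pfkm, was barely counted. Aldolase cleaves the 6-carbon sugar. Its main form Aldoa had 17.9 and 17.4 CPM with TL1A and 10.4 and 9.06 CPM in medium, a 1.82-fold rise (log2 fold change 0.86, SE 0.18, adjusted p = 0.0075). Most of its reads came from 1 of 3 transcript rows, with 177 and 189 reads with TL1A and 117 and 108 in medium. The other tested row, with far fewer reads, did not pass (log2 fold change 0.16, SE 0.52, adjusted p = 0.83). Tpi1, which interconverts the triose phosphates that aldolase makes, had 352 and 338 CPM with TL1A and 189 and 223 CPM in medium, a 1.67-fold rise (log2 fold change 0.74, SE 0.09, adjusted p = 0.000632). Both genes were higher in each TL1A library than in either medium library.

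The other tested genes of this phase did not pass. Gpi1, which isomerises glucose 6-phosphate to fructose 6-phosphate, had 306 and 292 CPM with TL1A and 312 and 340 CPM in medium (log2 fold change -0.13, SE 0.08, adjusted p = 0.226). Pfkfb4, a bifunctional enzyme that makes and removes the activator of phosphofructokinase, had 10.05 and 9.57 CPM with TL1A and 10.7 and 11.7 CPM in medium (log2 fold change -0.19, SE 0.20, adjusted p = 0.477). Both were lower in each TL1A library than in either medium library, by amounts that missed the threshold.

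In the ATP-yielding steps, Pgk1 and the thinly counted Gapdh rose, or 50% of the 4 tested, beside 20.6% of all genes tested. Pgam1 and Pkm did not pass, and none of these 4 fell, beside 21.7% of all genes tested. None was lower at an unadjusted p under 0.05 either, nor with DESeq2 or limma-voom, and likewise each count of 0 given below for pyruvate fate, the pentose phosphate pathway and glycogen was 0 in those tests. Pgk1, the phosphoglycerate kinase that makes the first ATP of this phase, had 37.4 and 38.9 CPM with TL1A and 15.05 and 18.1 CPM in medium. The groups lay far apart, and it rose 2.30-fold (log2 fold change 1.20, SE 0.16, adjusted p = 0.00074). Gapdh, which oxidises the triose phosphate and makes NADH, had 23 and 17 reads with TL1A and 8 and 6 reads in medium, or 2.14 and 1.47 CPM with TL1A and 0.637 and 0.449 CPM in medium. Its 3.28-fold rise (log2 fold change 1.71, SE 0.54, adjusted p = 0.0367) rests on 54 reads, and it entered the test only through the TL1A libraries. The call was lost when any library was left out, with adjusted p between 0.0952 and 0.267, and with DESeq2 (adjusted p = 0.209). Pgam1, the phosphoglycerate mutase, had 18 and 35 reads with TL1A and 23 and 10 in medium, with overlapping groups (log2 fold change 0.87, SE 0.56, adjusted p = 0.251).

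**Figure D3:**
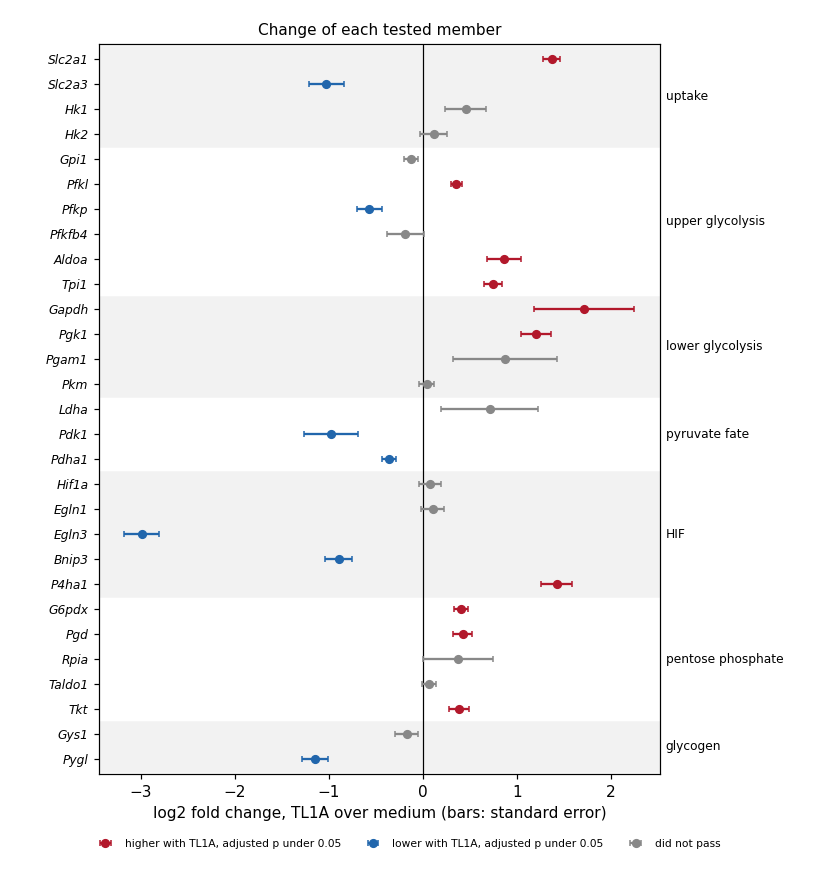
Log2 fold change of TL1A over medium for each of the 29 tested genes, in pathway order, with bars of 1 standard error and with color for genes that rose, fell or did not pass at an adjusted p of 0.05. Slc2a1 at 1.37 and Slc2a3 at -1.03 stand on opposite sides of 0 within glucose uptake, and the 5 tested pentose phosphate genes all lie above 0, of which Rpia and Taldo1 did not pass.

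Pyruvate kinase closes glycolysis, and its gene Pkm did not pass, with overlapping groups of 294 and 269.9 CPM with TL1A and 265 and 285 CPM in medium (log2 fold change 0.04, SE 0.08, adjusted p = 0.734). Pkm is spliced to carry one or the other of a pair of mutually exclusive exons, which gives the M1 enzyme of muscle and brain or the M2 enzyme of proliferating cells. The exons are shown because the deposited rows separate them. They are read from GRCm38, with capitals at positions where they differ; both are 167 bases and 103 positions, or 61.7%, are identical.
M1 exon, chr9:59675029-59675195, plus strand: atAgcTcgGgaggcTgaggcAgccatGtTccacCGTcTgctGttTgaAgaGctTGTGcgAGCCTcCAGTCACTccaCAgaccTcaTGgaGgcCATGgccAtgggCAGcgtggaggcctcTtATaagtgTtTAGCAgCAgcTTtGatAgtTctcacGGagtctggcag
M2 exon, chr9:59675568-59675734, plus strand: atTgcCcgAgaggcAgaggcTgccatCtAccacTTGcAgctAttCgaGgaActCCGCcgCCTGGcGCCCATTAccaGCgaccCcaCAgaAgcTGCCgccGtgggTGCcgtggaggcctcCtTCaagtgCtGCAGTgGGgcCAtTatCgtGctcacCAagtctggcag
The M1 row had 594 and 629 reads with TL1A and 596 and 698 in medium, and the M2 row had 2567 and 2502 reads with TL1A and 2726 and 3103 in medium. Of the reads of both rows, 18.8% (exact Clopper-Pearson interval 17.4% to 20.2%) and 20.1% (18.7% to 21.5%) fell in the M1 row with TL1A, and 17.9% (16.6% to 19.3%) and 18.4% (17.1% to 19.6%) in medium. These intervals cover counting error only. The test for an unequal change of the rows did not pass (adjusted p = 0.708). The share is not an isoform share, since in the GENCODE annotation of GRCm38 the M2 transcript has 558 bases that the other lacks and the M1 transcript has 167. Across all genes with several tested rows, 12 of 268, or 4.48%, were called as changing unequally. Leaving out medium replicate 2 gave 20 such genes, and leaving out TL1A replicate 1 or TL1A replicate 2 gave 0, with 44 and 36 genes at an unadjusted p under 0.05. Of the genes described here with several tested rows, Aldoa, Pfkp and Pkm, none was called by edgeR's test and none had an unadjusted p under 0.05 (adjusted p = 0.33 for Aldoa and 0.99 for Pfkp).

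Among genes for the fate of pyruvate, 2 of the 3 tested fell and none rose, and their median log2 fold change was -0.36. With only 3 genes, this is 66.7% lower, beside 21.7% over all genes tested. Pdk1, a kinase that switches pyruvate dehydrogenase off and a HIF target, had 13.9 and 7.85 CPM with TL1A and 24.4 and 18.3 CPM in medium, and fell 1.97-fold (log2 fold change -0.98, SE 0.29, adjusted p = 0.0284). The groups do not overlap, but replicates differed in both. Without TL1A replicate 2 the log2 fold change was -0.61 with an adjusted p of 0.097, and without medium replicate 1 it was -0.77 with an adjusted p of 0.0913. Pdha1, the catalytic subunit of pyruvate dehydrogenase that Pdk1 phosphorylates, had 212 and 203 CPM with TL1A and 265 and 268 CPM in medium, and fell 1.29-fold (log2 fold change -0.36, SE 0.07, adjusted p = 0.00577). Thus the transcripts of this subunit and of a kinase that inhibits the enzyme were both lower with TL1A. The other listed genes of the pyruvate dehydrogenase complex, Pdhb, Pdhx, Dlat and Dld, did not pass. Their log2 fold changes were 0.19, -0.14, 0.26 and 0.15. Without TL1A replicate 2 the adjusted p of Pdha1 was 0.0601. Ldha, the main lactate dehydrogenase of activated lymphocytes, had 16 and 15 reads with TL1A and 8 and 14 in medium (log2 fold change 0.71, SE 0.52, adjusted p = 0.311). With 53 reads in all, a change of the size seen for Aldoa or Tpi1 was not detectable for Ldha.

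In the pentose phosphate pathway, 3 of the 5 tested genes rose by 1.30-fold to 1.34-fold and none fell, and their median log2 fold change was 0.38. The share called higher was 60% of only 5 genes, beside 20.6% over all genes tested. G6pdx, the glucose 6-phosphate dehydrogenase that commits sugar to the pathway and makes NADPH, had 568 and 566 CPM with TL1A and 405 and 454 CPM in medium, a 1.32-fold rise (log2 fold change 0.40, SE 0.08, adjusted p = 0.00474). The TL1A libraries lay together and above both medium libraries. Pgd, the second NADPH-making enzyme, had 489.97 and 407 CPM with TL1A and 315 and 355 CPM in medium (log2 fold change 0.42, SE 0.11, adjusted p = 0.0154), and without TL1A replicate 1 its adjusted p was 0.0906. Tkt, the transketolase that returns carbon to glycolysis, had 685 and 588 CPM with TL1A and 443 and 534 CPM in medium (log2 fold change 0.38, SE 0.11, adjusted p = 0.027). Its call was lost without TL1A replicate 1 (adjusted p = 0.131) or without medium replicate 1 (adjusted p = 0.0653), and in a fit with a replicate block (adjusted p = 0.057). For Pgd and Tkt, TL1A replicate 1 was the higher TL1A library and medium replicate 1 the lower medium library. Taldo1, the transaldolase of the non-oxidative branch, had 549 and 509.6 CPM with TL1A and 484 and 528 CPM in medium, with overlapping groups (log2 fold change 0.07, SE 0.08, adjusted p = 0.526). Rpia, the isomerase that makes ribose 5-phosphate, had 7.25 and 4.31 CPM with TL1A and 3.34 and 5.54 CPM in medium, also overlapping (log2 fold change 0.37, SE 0.37, adjusted p = 0.463).

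Of the glycogen pair, Pygl, the phosphorylase that releases glucose from glycogen, had 30.2 and 25.6 CPM with TL1A and 64.7 and 59.5 CPM in medium. It was well below medium in both TL1A libraries and fell 2.23-fold (log2 fold change -1.15, SE 0.14, adjusted p = 0.00051). Gys1, the glycogen synthase of non-liver tissues, had 56.6 and 50.5 CPM with TL1A and 58.1 and 62.7 CPM in medium, without overlap, and did not pass (log2 fold change -0.17, SE 0.12, adjusted p = 0.287).

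The transcript of HIF-1α itself did not pass, with Hif1a at 65.9 and 71.6 CPM with TL1A and at 61.3 and 69.7 CPM in medium (log2 fold change 0.07, SE 0.12, adjusted p = 0.665). HIF-1α is controlled mainly through the stability of the protein, which RNA libraries do not measure. Egln1, the prolyl hydroxylase that sets its basal turnover, had 51.1 and 57.6 CPM with TL1A and 51.9 and 49.3 CPM in medium, again overlapping (log2 fold change 0.10, SE 0.12, adjusted p = 0.536). Egln3, the hydroxylase that HIF itself induces, showed the largest change of the 29, with 4.56 and 3.88 CPM with TL1A and 34.2 and 33.0 CPM in medium, or 49 and 45 reads with TL1A and 429 and 441 in medium. It fell 7.96-fold (log2 fold change -2.99, SE 0.18, adjusted p = 1.59e-05), with replicates close together on each side. Bnip3, a HIF target that marks mitochondria for removal, had 17.8 and 17.4 CPM with TL1A and 31.5 and 33.9 CPM in medium, and fell 1.86-fold (log2 fold change -0.90, SE 0.14, adjusted p = 0.00217). P4ha1, a catalytic subunit of collagen prolyl hydroxylase and also a HIF target, went the other way, with 174 and 183 CPM with TL1A and 54.3 and 78.9 CPM in medium. It rose 2.68-fold (log2 fold change 1.42, SE 0.17, adjusted p = 0.000426), and the groups lay far apart although the medium libraries differed. HIF targets picked here as examples thus stood on both sides of 0: Slc2a1, Pgk1 and P4ha1 rose, Egln3, Bnip3 and Pdk1 fell, and Hk2 did not pass. This is not a tally of all HIF targets in the set, since HIF-1α acts on most glycolytic genes. Of the 14 tested along the path from glucose entry to pyruvate, 6 rose, 2 fell and 6 did not pass.

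The promoters of HIF targets from both directions are shown, because HIF binds DNA at the core letters ACGTG or GCGTG. Each is the 250 bases before the annotated start in RefSeq on GRCm38.p6, written 5′ to 3′ on the strand of the gene, with capitals at a match to either word on either strand.
Slc2a1, rose, chr4:119108495-119108744, plus strand: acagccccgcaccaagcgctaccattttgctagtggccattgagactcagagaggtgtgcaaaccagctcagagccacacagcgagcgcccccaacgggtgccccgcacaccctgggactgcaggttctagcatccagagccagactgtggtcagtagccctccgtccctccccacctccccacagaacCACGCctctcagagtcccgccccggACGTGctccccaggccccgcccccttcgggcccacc
Pgk1, rose, chrX:106186850-106187099, plus strand: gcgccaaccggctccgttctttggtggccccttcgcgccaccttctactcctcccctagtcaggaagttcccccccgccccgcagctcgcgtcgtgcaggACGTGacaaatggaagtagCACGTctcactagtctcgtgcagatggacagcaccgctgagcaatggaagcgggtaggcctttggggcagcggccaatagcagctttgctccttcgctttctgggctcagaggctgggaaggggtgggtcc
P4ha1, rose, chr10:59323046-59323295, plus strand: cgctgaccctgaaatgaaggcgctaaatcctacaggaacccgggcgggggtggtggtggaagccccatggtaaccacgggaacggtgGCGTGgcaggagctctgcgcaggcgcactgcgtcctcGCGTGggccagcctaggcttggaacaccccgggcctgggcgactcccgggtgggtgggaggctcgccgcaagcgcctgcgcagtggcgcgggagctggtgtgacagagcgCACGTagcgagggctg
Egln3, fell, chr12:54203875-54204124, minus strand: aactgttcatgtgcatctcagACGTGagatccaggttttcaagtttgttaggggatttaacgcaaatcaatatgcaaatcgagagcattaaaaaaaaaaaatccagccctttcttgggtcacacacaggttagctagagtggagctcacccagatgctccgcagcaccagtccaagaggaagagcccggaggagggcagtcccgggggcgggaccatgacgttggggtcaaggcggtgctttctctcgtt
Bnip3, fell, chr7:138909507-138909756, minus strand: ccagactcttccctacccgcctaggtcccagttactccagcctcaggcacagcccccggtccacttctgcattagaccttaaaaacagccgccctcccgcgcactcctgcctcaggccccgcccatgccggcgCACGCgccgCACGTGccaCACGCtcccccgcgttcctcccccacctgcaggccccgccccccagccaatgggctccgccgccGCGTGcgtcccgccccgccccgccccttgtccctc
Each of these windows holds at least 1 match. Slc2a1 has 1 ACGTG and 1 GCGTG, Pgk1 has 2 ACGTG, P4ha1 has 1 ACGTG and 2 GCGTG, and Egln3 has 1 ACGTG. Bnip3 has 3 GCGTG and 2 ACGTG, and those 2 ACGTG overlap, as opposite strands of 1 palindrome. Over all 32851 promoter windows of that length, 38.6% hold either word, with ACGTG in 16.6% and GCGTG in 28.2%. Of the 54 windows of 39 genes of the set, 43, or 79.6%, hold either word. The share was 76.9% of the 13 windows of genes that rose and 85.7% of the 7 windows of 6 genes that fell, which do not include Slc2a3. Base composition was not matched between these windows, and a match is a description, not a bound site.

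Of 9 tested genes among 11 others of the HIF pathway, 4 rose and 1 fell, and the median log2 fold change was 0.24. The share called was 55.6%, beside 42.3% over all genes tested. Epas1, the gene of HIF-2α, had 55.2 and 42.9 CPM with TL1A and 187 and 162 CPM in medium, and fell 3.55-fold (log2 fold change -1.83, SE 0.14, adjusted p = 5.62e-05). Eloc (log2 fold change 0.76, SE 0.09, adjusted p = 0.000522) and Elob (log2 fold change 0.61, SE 0.09, adjusted p = 0.00126), the elongin subunits of the complex that ubiquitinates hydroxylated HIF, rose. Of 16 tested genes among 25 other HIF targets, 6 rose, 5 fell and 5 did not pass, with a median of 0.33. Of these tested targets 68.8% were called, again beside 42.3% over all genes. P4ha2, the companion of P4ha1 in collagen hydroxylation, had 443 and 493 reads with TL1A and 4 and 9 reads in medium, or 41.2 and 42.5 CPM with TL1A and 0.319 and 0.674 CPM in medium. It was nearly uncounted in medium and rose by 6.36 on the log2 scale (SE 0.27, adjusted p = 3e-06), or by 7.02 without medium replicate 2. With 13 reads in medium, it entered the test only through the TL1A libraries, so that a difference was bound to appear and its size is loosely fixed. Its 2 transcript rows are given only as their sum. Bhlhe40, a transcription factor of lymphocyte activation, had 8194 and 8042 CPM with TL1A and 1720.03 and 1757 CPM in medium (log2 fold change 2.22, SE 0.05, adjusted p = 2.59e-07). Tfrc, the transferrin receptor, had 211 and 217 CPM with TL1A and 87.2 and 93.0 CPM in medium (log2 fold change 1.25, SE 0.08, adjusted p = 2.74e-05).

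**Figure D4:**
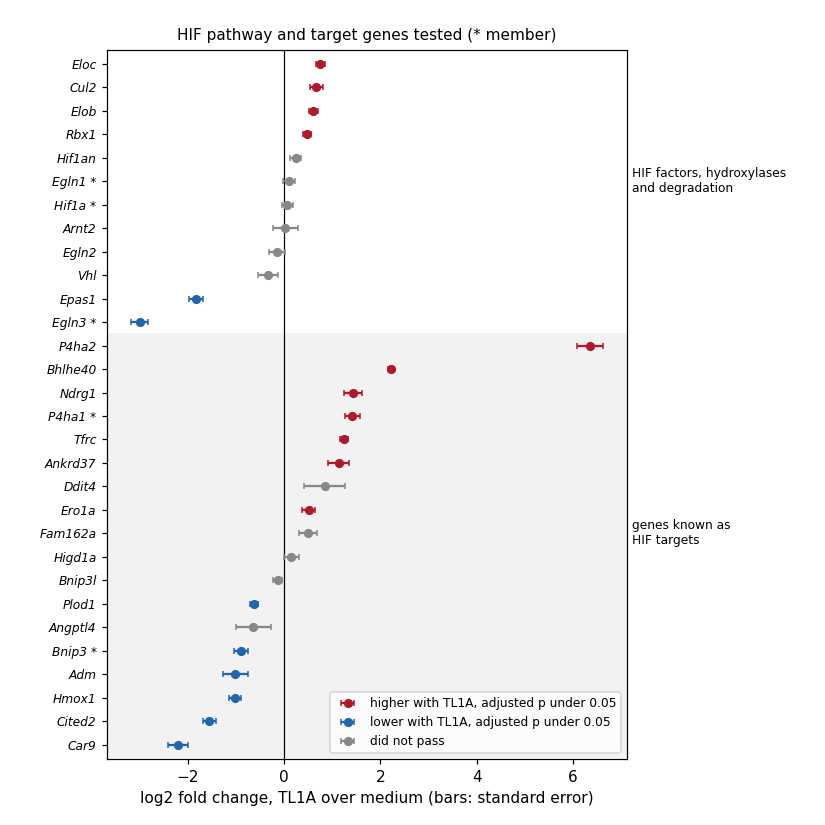
Log2 fold change of TL1A over medium for the tested genes of the HIF pathway and for tested HIF targets, with bars of 1 standard error, an asterisk at genes of the set of 40, red for genes that rose, blue for genes that fell and grey for genes that did not pass. P4ha2 at 6.36 and Egln3 at -2.99 mark the ends of the range, and targets lie on both sides of 0. Egln3 is placed with the factors and hydroxylases. Slc2a1, Pgk1, Pdk1 and Hk2, listed under their metabolic steps, are not drawn.

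In the wider lists of metabolic genes, the share of tested genes called was 42.9% for glycolysis, 30.8% for pyruvate and lactate, 33.3% for the pentose phosphate pathway and 40% for glycogen, near or below the 42.3% over all genes. Of 14 tested genes among 22 others of glycolysis and its side branches, 2 rose and 4 fell, while 8 missed the threshold, and the median log2 fold change was -0.60. Slc2a6, a member of the glucose transporter family found in white blood cells, had 295 and 288 CPM with TL1A and 40.1 and 39.2 CPM in medium, a 7.35-fold rise (log2 fold change 2.88, SE 0.09, adjusted p = 5.76e-07). It lay far above medium in both TL1A libraries, as Slc2a1 did. Slc2a6 has 2 transcript rows, given here only as their sum, whereas Slc2a1 has 1. Gpd1l, which resembles the cytosolic glycerol 3-phosphate dehydrogenase, had 20.8 and 27.0 CPM with TL1A and 93.3 and 108 CPM in medium (log2 fold change -2.07, SE 0.16, adjusted p = 4.94e-05). Galm, a sugar mutarotase, fell as well (log2 fold change -0.71, SE 0.10, adjusted p = 0.00087).

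Of 13 tested genes among 20 others of pyruvate and lactate metabolism, 1 rose, 3 fell and 9 did not pass, with a median of -0.14. The gene that rose was Mpc1, a subunit of the carrier that brings pyruvate into the mitochondrion, with 41.02 and 39.2 CPM with TL1A and 14.2 and 14.5 CPM in medium (log2 fold change 1.48, SE 0.14, adjusted p = 0.000158). Mpc2, the other subunit, had 4.65 and 5.95 CPM with TL1A and 11.7 and 8.01 CPM in medium and was called lower (log2 fold change -0.89, SE 0.28, adjusted p = 0.0382). That call was lost with DESeq2 (adjusted p = 0.115), limma-voom (0.0511) and the replicate block (0.0649), and without TL1A replicate 1 (0.136) or medium replicate 1 (0.194). Ldhd, the D-lactate dehydrogenase of mitochondria, had 6.60 and 3.53 CPM with TL1A and 37.8 and 37.1 CPM in medium (log2 fold change -2.89, SE 0.26, adjusted p = 0.000127). Pdk2, a second kinase of pyruvate dehydrogenase, had 3.07 and 4.22 CPM with TL1A and 8.998 and 7.86 CPM in medium (log2 fold change -1.20, SE 0.28, adjusted p = 0.0107). Pdk3, another of these kinases, had 6.60 and 6.47 CPM with TL1A and 5.41 and 7.41 CPM in medium and did not pass (log2 fold change 0.02, SE 0.26, adjusted p = 0.949), and Pdk4 had 5 reads in all.

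Of 6 tested genes among 8 others of the pentose phosphate pathway, none rose and 2 fell, and the median was -0.66. None rose with DESeq2, limma-voom or at an unadjusted p under 0.05 either, and 1, 2 and 3 fell in those tests. Prps2, which turns ribose 5-phosphate into the precursor of nucleotides, had 83.2 and 83.1 CPM with TL1A and 171 and 161 CPM in medium and fell 1.99-fold (adjusted p = 0.000104). Shpk, a sedoheptulose kinase, was called lower (log2 fold change -0.92, SE 0.28, adjusted p = 0.0314), but not with DESeq2 (adjusted p = 0.189), with the replicate block (adjusted p = 0.0567) or after any library was left out. Of 10 tested genes among 14 others of glycogen metabolism, 1 rose and 3 fell, with a median of -0.31. The gene that rose, Ugp2, had 31 and 17 reads with TL1A and 6 and 9 in medium (log2 fold change 1.89, SE 0.57, adjusted p = 0.031). It entered the test only through the TL1A libraries, and DESeq2 called no gene of this list higher. Gyg, the glycogenin that primes glycogen, had 159 and 162 CPM with TL1A and 296 and 302 CPM in medium (log2 fold change -0.90, SE 0.07, adjusted p = 6.49e-05). Ppp1r3b, which targets a phosphatase to glycogen, fell (log2 fold change -1.23, SE 0.22, adjusted p = 0.00364), as did the phosphorylase Pygb (log2 fold change -0.34, SE 0.09, adjusted p = 0.0174), whose call was lost without TL1A replicate 1, TL1A replicate 2 or medium replicate 2, with adjusted p between 0.07 and 0.0979.

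The list of 17 regulators of glycolysis mixes drivers with inhibitors, so its counts have no single meaning for the pathway. Of the 9 tested, 4 rose and none fell, with a median of 0.46 on the log2 scale. The share called was 44.4%, all higher, beside 42.3% called and 20.6% higher over all genes tested. DESeq2, limma-voom and an unadjusted p under 0.05 gave the same counts. Rptor, the scaffold of the growth kinase complex mTORC1, had 424 and 414 CPM with TL1A and 64.5 and 66.8 CPM in medium (log2 fold change 2.67, SE 0.08, adjusted p = 4.98e-07). Mtor, the kinase of that complex, rose by less (log2 fold change 0.56, SE 0.10, adjusted p = 0.00312). So did Mlxip, a glucose-sensing transcription factor (log2 fold change 0.44, SE 0.08, adjusted p = 0.00331). Arrdc4 was the remaining gene that rose (log2 fold change 0.52, SE 0.10, adjusted p = 0.00403). Myc, which drives glycolytic genes in activated lymphocytes, and Txnip, an inhibitor of glucose uptake, had 0 reads in every library and say nothing of their levels, given the counting described above.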

How the data were processed

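RNA was measured in 2 TL1A and 2 medium libraries. The authors deposited raw read counts for each RefSeq transcript; the submitters' processing notes name CASAVA, STAR, HTSeq and build mm9. Tool versions, strand use and annotation are not given in the sources at hand, so antisense and overlapping genes cannot be told apart. Summary rows, 69.9% to 71.3% of each column, entered neither library sizes nor tests. Reads ambiguous between transcripts made up 33.7% to 34% of those assigned or ambiguous. Of 33535 transcript rows, 33154 matched a RefSeq symbol (GRCm38.p6, names only); 381 kept their accession. The plan spoke of genes, so rows of a gene were summed. A few genes are not reported here.

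Genes passing filterByExpr (minimum count 10) were tested in R 4.3.3 with edgeR 4.0.16 (glmQLFit and glmQLFTest, two-sided, group as the only term, TMM factors 0.908 and 0.921 for TL1A and 1.09 and 1.09 for medium) at a Benjamini-Hochberg adjusted p of 0.05. A standard error is the log2 fold change divided by the square root of F. Unequal rows were tested with diffSpliceDGE. The scripts were tested on simulated data. With 2 libraries a side, no exact permutation p can be under 0.333. Alternatives were DESeq2 1.42.0, limma 3.58.1 (voom), RLE scaling, no filter, single-row genes, a replicate block and each library left out. Members and lists were chosen with earlier results of these data known. All 40 members are accounted for. Of each other list up to 3 genes that passed, by smallest p, are named. Mpc2, Pdk3, Pdk4, Pdhb, Pdhx, Dlat, Dld, Ugp2, Arrdc4, Myc, Txnip and single markers were named after their values were seen.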

Additional observations from a re-analysis of the deposited data

How the results depend on the processing

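Over the 29 tested members and all alternatives together, 265 of 284 recomputed changes kept direction and side of the threshold, 14 lost the call and 5, all of genes that had not passed, changed sign. Members that rose numbered 8 to 10 and those that fell 5 to 7 with 1 library left out. Without the read minimum 11 rose, Eno2 among them (adjusted p = 0.00148). With the replicate block 8 rose and 7 fell; among members, Gapdh and Tkt lost their calls (adjusted p = 0.0666 and 0.057), and Shpk, Mpc2 and Adgre1 lost theirs too (0.0567, 0.0649 and 0.0524). The replicate differences of the groups correlated at -0.105 over genes, and a crossed pairing, chosen after seeing the data, gave 10 and 7, with 2295 and 2439 over all genes against 2027 and 2141.

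With 1 library left out, log2 fold changes ran from -0.022 to 0.12 for Pkm, from -0.026 to 0.19 for Hif1a, from -0.040 to 0.81 for Rpia and from -0.0041 to 0.16 for Taldo1; outside the set, from -0.19 to 0.30 for Pdk3; among markers, from -6.11 to 0.45 for Rora, from -0.17 to 0.98 for Cd3g and from -0.47 to 0.26 for Csf1r. Genes with unequal rows numbered 0 to 20. Some markers that kept their sign moved in size as well. Without medium replicate 2, Cd3e went from 1.39 to 7.25, with 0 reads in the remaining medium library, and Mpeg1 from -1.90 to -1.48. Without TL1A replicate 2, Lyz2 went from -0.65 to -1.19 and Adgre1 from 0.91 to 0.64. Fewer samples were fitted in each case, and no other cause was tested. A library left alone in its group is assumed to vary like the other group. RLE scaling moved the median of all genes by 0.024. Read numbers limit Gapdh, Ldha and Pgam1, and the 11 barely counted genes could not be tested.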
